A study of Mus musculus with 12 samples.

Results

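The genes described here are 9 markers of alternatively activated macrophages: Retnla, Retnlg, Chil1, Chil3, Chil4, Mrc1, Mgl2, Clec10a and F13a1. They were taken from the expression table by gene symbol, and all 9 of 9 had a row among the 37775 genes of the table and passed the expression filter that left 22118 genes to be tested. mRNA had been sequenced from 4 fractions of monocytes and macrophages (Mo-Macs) of the ear skin, with 3 libraries per fraction and 12 in all. The mice were young adult male WT BALB/c animals with IgE-mediated chronic allergic inflammation (IgE-CAI), elicited by 300 μg of TNP-specific IgE given intravenously and, a day later, 10 μg of TNP-conjugated ovalbumin injected into the right ear, and the fractions were sorted on day 5 after that challenge. In the flow cytometry of the study, Mo-Macs were the cells with CD45 and CD11b on the surface and without Siglec-F and Ly6G, a gate meant to leave out neutrophils, eosinophils and cells outside the hematopoietic lineage. The fractions were Ly6ChiPD-L2lo classical monocytes, Ly6ChiPD-L2hi early classical monocyte-derived macrophages (early CMDMs), Ly6CloPD-L2hi late CMDMs and Ly6CloPD-L2lo resident-like macrophages. All 4 fractions shared the strain, the antigen and the day, so that each comparison is between sorted cell surface phenotypes within the same kind of lesion. The labels do not say whether the 3 libraries of a fraction came from separate animals, and the p-values measure the spread between these libraries, which may be technical.

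Alternative activation is the program that IL-4 and IL-13 induce in macrophages through the receptor subunit IL-4Rα, the JAK kinases and the transcription factor STAT6, and it is known from allergy, helminth infection and tissue repair. Among its best known products in the mouse are secreted proteins of the resistin-like family (RELMα, the product of Retnla) and of the chitinase-like family (Ym1, Ym2 and BRP-39, the products of Chil3, Chil4 and Chil1). Others are C-type lectins on the cell surface, namely the mannose receptor CD206 (Mrc1) and the galactose-type lectins CD301b and CD301a (Mgl2 and Clec10a), and the A subunit of the transglutaminase coagulation factor XIII (F13a1). Several of these genes are not restricted to macrophages: Mgl2 and Clec10a also mark dermal dendritic cells, Mrc1 is also made by lymphatic endothelial cells, and Retnlg is best known from neutrophils and their precursors.

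The total count per library lay between 12537178 and 19844113, and 3 counts, the most that a count of 0 still allows, corresponded to 0.162 to 0.239 CPM, the count scaled to the adjusted library size. Since no molecular identifiers were used, limits of this kind speak for counting error and for nothing else. The adjustment was by TMM, in which the bulk of genes is taken to be unchanged between fractions. Markers of mononuclear phagocytes were present in every library, where 9 of them summed to 2727 to 3927 CPM in early CMDMs and to 6630 to 10389 CPM in the other fractions. Of the genes behind the sort, Ly6c2 had means of 492, 49.3, 19.1 and 17.5 CPM and Pdcd1lg2, which encodes PD-L2, 14.1, 21.4, 32.2 and 9.60 CPM in the order of the fractions given above. Markers of other cell types were present as well. The 6 keratinocyte markers summed to 17096 to 27284 CPM in early CMDMs against 1871 to 4050 CPM in the other fractions, and all 6 were higher in early CMDMs than in each other fraction (edgeR, adjusted p under the threshold of 0.05). The 10 pan-leukocyte genes summed to 1140 to 1826 CPM in the early CMDM libraries and 2536 to 2885 CPM in the late ones, against 4217 to 4844 CPM in both PD-L2lo fractions. The 6 fibroblast markers summed to 2988 to 5588 CPM in both Ly6Chi fractions and to at most 499 CPM in both Ly6Clo fractions. In bulk libraries such as these, fewer cells of a type and less RNA per cell cannot be told apart.

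**Figure D1:**
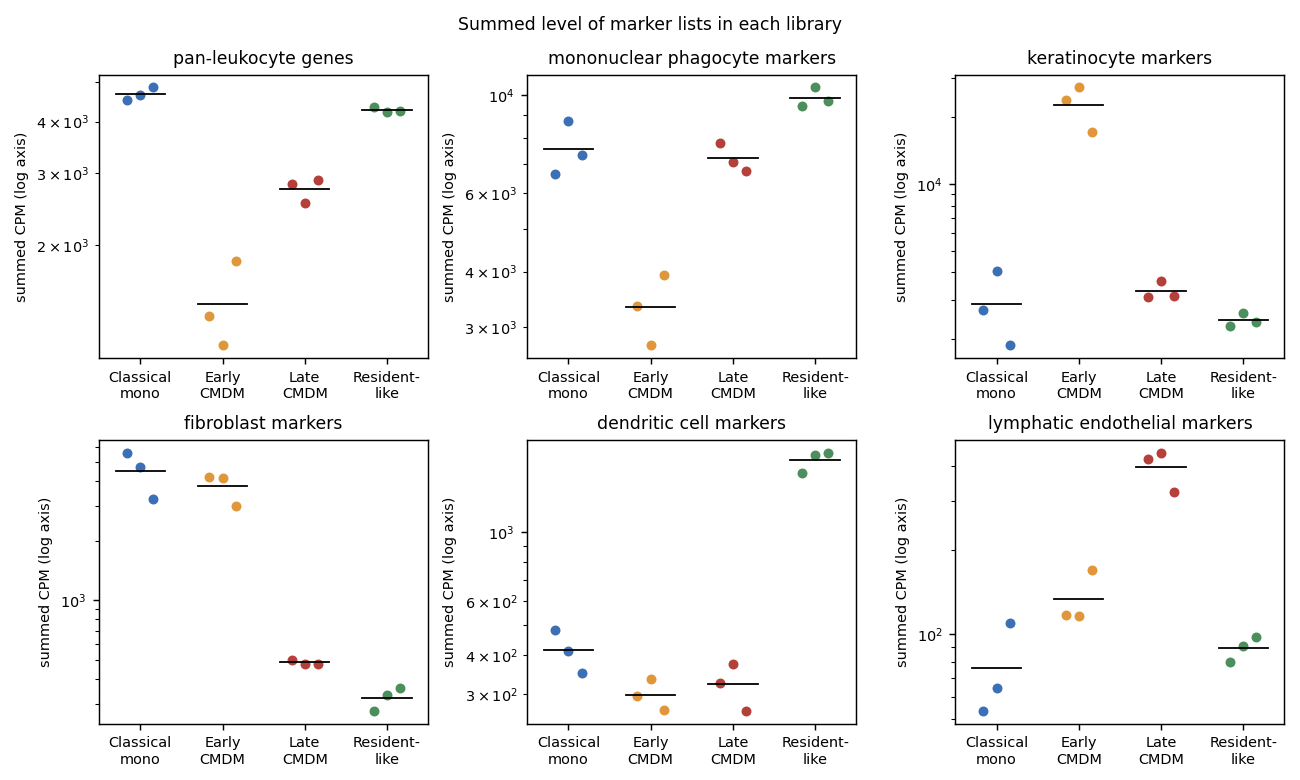
Summed CPM (log axes) of 6 marker lists in each library, with points for the 3 libraries and a black line for the mean of each fraction. By sum, pan-leukocyte and mononuclear phagocyte genes were lowest and keratinocyte genes highest in early CMDMs, and lymphatic endothelial genes were highest in late CMDMs. The sum of the 10 dendritic cell genes was highest in resident-like macrophages, although 3 of them were higher and 4 lower there than in classical monocytes.

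The 9 genes did not form a single pattern. By mean CPM, 6 of them were highest in late CMDMs (Chil1, Chil3, Chil4, Mrc1, Clec10a and F13a1) and 3 in resident-like macrophages (Retnla, Retnlg and Mgl2). None had its highest mean in classical monocytes or early CMDMs, but when the same counts were set against 10 pan-leukocyte genes of each library, the 3 chitinase-like genes were highest in early CMDMs and Retnla in late CMDMs. The late CMDM and resident-like means differed beyond the spread of the libraries for 6 of the 9, and for Retnla, Clec10a and F13a1 they did not pass the test. The ratio of the highest to the lowest fraction mean ranged from 2.98 for Chil3 to 16.3 for Retnlg.

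In early CMDMs, 3 genes were higher than in classical monocytes (Retnla, Chil1 and Mrc1) and 3 lower (Mgl2, Clec10a and F13a1), beside 24.2% and 20.6% of all tested genes called higher and lower, although with libraries scaled by the pan-leukocyte genes all 9 were higher, as were 90.9% of all tested genes. The median log2 fold change of the 9 genes was 0.03, near that of all tested genes at -0.01. Late CMDMs against classical monocytes gave 7 genes higher, beside 18.1% of all tested genes, with a median of 1.06. The 2 others, Chil3 and Chil4, had higher means in late CMDMs that did not pass the test, and under the pan-leukocyte scaling all 9 were called higher, beside 61.9% of all tested genes. In this comparison 0 of the 9 were called lower by edgeR, with 0 lower also at an unadjusted p under 0.05 and 0 in DESeq2, beside 17.5% of all tested genes.

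Late CMDMs against early CMDMs gave 6 genes higher, beside 14.4% of all tested genes, and 0 lower in edgeR, beside 17.5%, with 0 lower at an unadjusted p under 0.05 and 0 in DESeq2. Under the pan-leukocyte scaling 4 genes were called higher, beside 0.69% of all tested genes, and 0 lower, beside 73.2%. The values of Retnlg, Chil1, Chil3 and Chil4 turned to -0.23, -0.19, -0.30 and -0.48 under it without being called. The libraries of the pair of fractions did not overlap for any of the 9 genes, beside 49% of all tested genes without overlap in either direction, and the median log2 fold change of the 9 was 1.36. Resident-like macrophages against classical monocytes gave 5 genes higher (Retnla, Retnlg, Mrc1, Mgl2 and Clec10a) and 2 lower (Chil3 and Chil4), beside 10.8% and 12.9% of all tested genes. Resident-like macrophages against early CMDMs gave 6 higher and 3 lower, beside 21.4% and 25.1%, so that all 9 genes differed, the 3 chitinase-like genes downward. Under the pan-leukocyte scaling that comparison gave 2 higher and 4 lower, with Retnla, Mrc1 and F13a1 turned downward, beside 1.36% and 89.8% of all tested genes. Resident-like macrophages against late CMDMs gave 2 higher (Retnlg and Mgl2) and 4 lower (Chil1, Chil3, Chil4 and Mrc1), beside 12.7% and 15.4%, with a median log2 fold change of -0.55. The comparisons share fractions and are not independent of each other.

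**Figure D2:**
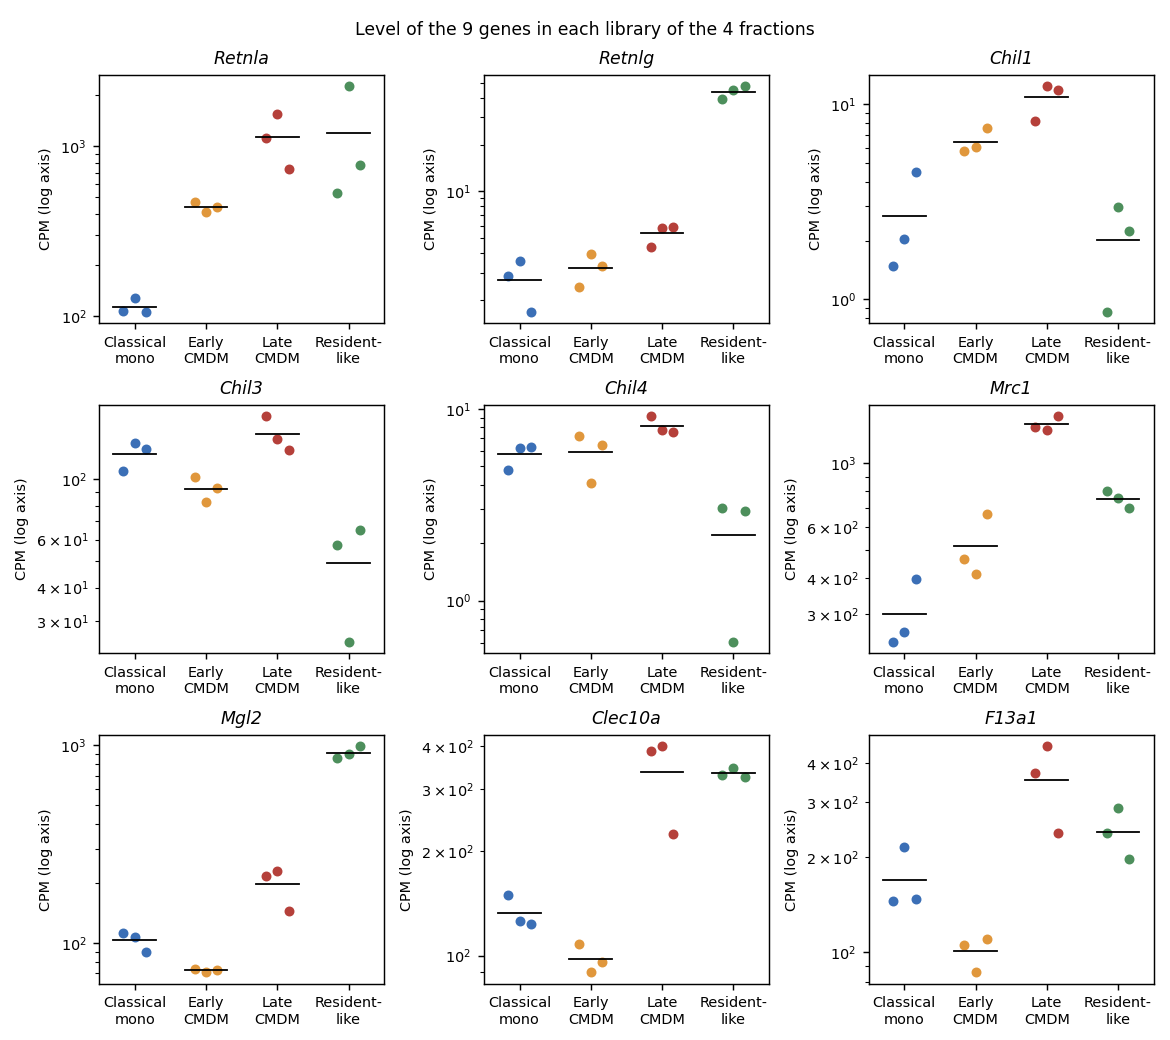
Level of each gene in CPM (log axes) in the 3 libraries (points, in replicate order) of each fraction, with a black line for the mean. The means of the chitinase-like genes were lowest in resident-like macrophages, whereas Retnlg and Mgl2 were highest there in every library.

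Retnla encodes RELMα, a small secreted protein that is among the genes most strongly induced by IL-4 in mouse macrophages. It lies on chromosome 16 at 48842551 to 48844461 of GRCm38 (plus strand, 4 exons in the transcript used), and its neighbour Retnlg, which encodes RELMγ, lies at 48872621 to 48874496 on the same strand. Their coding sequences were 83.5% identical over 351 aligned bases, and 0 of the 550 windows of 50 bases in the Retnla transcript occurred unchanged in that of Retnlg. The stretches before the start of each gene are shown because the pair shares the letters TTCNNNNGAA, the spacing of a palindrome that STAT6 is known to bind. In the RefSeq promoter table (GRCm38.p6), the match lay 145 bases before the start of Retnla and 72 bases before that of Retnlg. The starts of that table are not the GENCODE starts given above, from which the matches were 87 and 85 bases away. They stand in the stretches chr16:48842429-48842508 and chr16:48872501-48872580, plus strand, with the matching letters in capitals.
Retnla: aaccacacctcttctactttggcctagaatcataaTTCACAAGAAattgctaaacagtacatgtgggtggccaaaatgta
Retnlg: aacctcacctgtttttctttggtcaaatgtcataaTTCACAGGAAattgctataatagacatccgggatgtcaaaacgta
The pattern reads the same on both strands and was present in the 250 bases before the start in 5.85% of the 32851 promoters of the table. A match of letters describes the sequence and is not a measured binding site.

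Retnla had 106, 127 and 105 CPM in the 3 classical monocyte libraries and 470, 411 and 440 CPM in those of early CMDMs. The late CMDM libraries had 1112, 1543 and 738 CPM, and the resident-like libraries 533, 2272 and 770 CPM. Every library of the other 3 fractions was above every classical monocyte library, and the resident-like libraries spread most, with replicate 2 above all others of the series. Against classical monocytes, Retnla was 3.90-fold higher in early CMDMs (log2 fold change 1.96 ± 0.47, SE, n = 3 per fraction, edgeR adjusted p = 0.00617). The corresponding values were 10.0-fold in late CMDMs (3.33 ± 0.50, edgeR adjusted p = 0.000403) and 10.6-fold in resident-like macrophages (3.40 ± 0.50, edgeR adjusted p = 0.000528). All 3 calls held under every alternative, including the omission of each library, but without resident-like replicate 2 the last of these values was 2.53 (adjusted p = 6.78e-06).

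The steps among the macrophage fractions were less firm for Retnla. Late CMDMs were above early CMDMs by 1.36 ± 0.46 (edgeR adjusted p = 0.0461), and this call was lost on leaving out any of 8 libraries, with an adjusted p of up to 0.162 without early CMDM replicate 2, and also with library size only (adjusted p = 0.051), with the DEGES normalization, in which genes called first are left out of the scaling (adjusted p = 0.0522), without the filter on low counts (adjusted p = 0.121) and under the pan-leukocyte scaling (0.41, adjusted p = 0.492). Resident-like macrophages were above early CMDMs by 1.44 ± 0.46 (edgeR adjusted p = 0.0267), but at -0.17 against them under the pan-leukocyte scaling (adjusted p = 0.753). Without resident-like replicate 2 that difference was 0.57 (adjusted p = 0.0738), and without classical monocyte replicate 3 or early CMDM replicate 1, 2 or 3 the adjusted p ranged from 0.0547 to 0.1. It was 0.0743 without the filter and 0.07 in a fit of the 6 libraries compared. Between resident-like macrophages and late CMDMs the difference was 0.08, with a 95% interval of -0.97 to 1.12 (edgeR adjusted p = 0.923), and without resident-like replicate 2 it was -0.80 (adjusted p = 0.0315). The place of resident-like macrophages beside late CMDMs thus rested on that library.

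Retnlg was far less abundant outside the resident-like fraction. In CPM, the classical monocyte libraries had 2.83, 3.57 and 1.67 and those of early CMDMs 2.41, 3.92 and 3.29, while the late CMDM libraries had 4.38, 5.78 and 5.93 and the resident-like libraries 39.1, 44.8 and 47.7. The lowest resident-like library was above every other library, whereas classical monocytes and early CMDMs overlapped. The resident-like fraction was higher by 4.02 ± 0.22 than classical monocytes (16.2-fold, edgeR adjusted p = 2.23e-09), by 3.77 ± 0.22 than early CMDMs (edgeR adjusted p = 2.43e-09) and by 3.02 ± 0.20 than late CMDMs (8.13-fold, edgeR adjusted p = 3.25e-08). Late CMDMs were above classical monocytes by 1.00 ± 0.24 (edgeR adjusted p = 0.00344) and above early CMDMs by 0.75 ± 0.23 (edgeR adjusted p = 0.0221), which turned to -0.23 under the pan-leukocyte scaling (adjusted p = 0.468). The latter call was lost without early CMDM replicate 1 (adjusted p = 0.111), late CMDM replicate 2 (0.0742) or late CMDM replicate 3 (0.0809). The difference of early CMDMs from classical monocytes was 0.25, with a 95% interval of -0.32 to 0.83 (edgeR adjusted p = 0.441). It was -0.0027 without classical monocyte replicate 3.

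Neutrophils are a known source of Retnlg, and their 10 markers summed to 67.1 to 86.4 CPM in the resident-like libraries, against 96.7 to 123 in the classical monocyte libraries, 54.8 to 71.5 in those of early CMDMs and 105 to 133 in those of late CMDMs. Most of this sum was Csf3r, the G-CSF receptor, at 55.4 to 72.3 CPM in the resident-like libraries, which monocytes also express. Ly6g, Ngp and Stfa2l1, which made 3 of the 10, had a count of 0 in all 3 resident-like libraries, which allows up to 0.162 to 0.182 CPM each. Of the 4 markers tested, Mmp8 was higher in the resident-like fraction than in early CMDMs (1.47 ± 0.44, edgeR adjusted p = 0.0134) and lower than in classical monocytes (-2.49 ± 0.34, edgeR adjusted p = 6.32e-05), at a mean of 2.97 CPM, Csf3r was lower than in late CMDMs, and Cxcr2 and Mpo were not called. Markers of mast cells and basophils were higher in the resident-like libraries, at a sum of 100.7 to 197 CPM against 15.5 to 94.2 CPM in the other fractions (all 7 tested were higher than in either CMDM fraction and 3 higher than in classical monocytes). The 10 dendritic cell markers summed to 1546 to 1799 CPM against 265 to 484 CPM, with 3 higher and 4 lower than in classical monocytes. The part of these cell types in the Retnlg level was not tested.

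**Figure D3:**
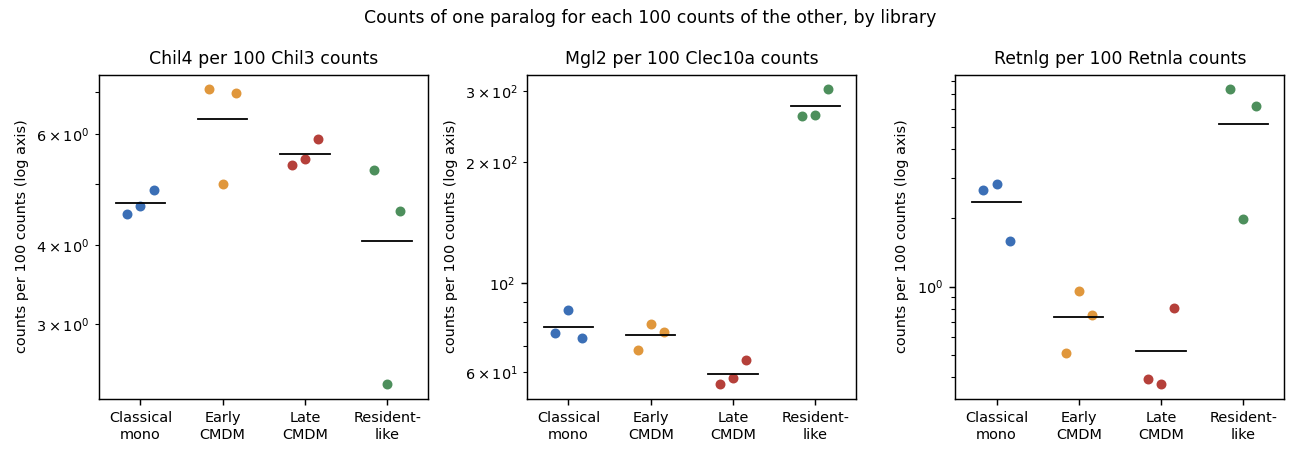
Counts of Chil4 for each 100 of Chil3, of Mgl2 for each 100 of Clec10a and of Retnlg for each 100 of Retnla, per library (points, log axes), with the mean of each fraction as a black line. The ratio of Mgl2 to Clec10a stood apart in resident-like macrophages, at 260.5 to 303 per 100, while Chil4 stayed between 2.41 and 7.06 per 100 Chil3 in all libraries.

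The chitinase-like genes encode secreted proteins that keep the fold of a chitinase and have lost the enzyme activity. Chil3 (Ym1) and Chil4 (Ym2) lie on chromosome 3 of GRCm38, on the minus strand at 106147554 to 106167564 and 106201490 to 106219507, and Chil1 (BRP-39) lies on chromosome 1 at 134182176 to 134190181 on the plus strand. The coding sequences of Chil3 and Chil4 were 95.4% identical over 1194 aligned bases, with a longest identical run of 136 bases, against 67.1% over 1054 bases for Chil3 and Chil1. Of the 1490 windows of 50 bases in the Chil3 transcript, 275 (18.5%) occurred unchanged in that of Chil4, so that some reads of the pair match both genes and the separate counts are uncertain. The pair of stretches of 90 coding bases within 1 exon at which they differ most is shown, since it is there that a read can tell them apart. It lies in exon 8, at chr3:106149734-106149823 for Chil3 and chr3:106203684-106203773 for Chil4, minus strand, and the 11 bases that differ are in capitals.
Chil3: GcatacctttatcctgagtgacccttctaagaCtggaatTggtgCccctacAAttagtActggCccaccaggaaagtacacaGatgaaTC
Chil4: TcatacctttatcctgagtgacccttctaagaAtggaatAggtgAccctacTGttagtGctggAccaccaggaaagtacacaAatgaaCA
Before their starts the pair shares a palindrome with the shorter spacing TTCNNNGAA, the core that most other STAT proteins bind, at 172 bases before the Chil3 start and 200 bases before the Chil4 start of the RefSeq table (172 bases before the GENCODE start in both), in chr3:106167693-106167771 and chr3:106219636-106219714, minus strand, with the matching letters in capitals.
Chil3: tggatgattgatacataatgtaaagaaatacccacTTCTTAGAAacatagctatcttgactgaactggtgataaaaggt
Chil4: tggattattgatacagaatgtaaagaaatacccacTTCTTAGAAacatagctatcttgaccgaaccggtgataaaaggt
This shorter pattern was present in 7.02% of the promoters of the table, and neither pattern was found in the 250 bases searched for Chil1, Mrc1, Mgl2 and F13a1. Clec10a had no row in that table.

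Chil3 was the abundant member of the family and was lowest in resident-like macrophages. The classical monocyte libraries had 107, 136 and 129 CPM and those of early CMDMs 102, 82.4 and 92.8 CPM, the late CMDM libraries had 171, 141 and 128 CPM, and the resident-like libraries 57.4, 25.2 and 65.1 CPM. All resident-like libraries were below all others, and classical monocytes and late CMDMs overlapped. Chil3 was lower in resident-like macrophages than in classical monocytes (log2 fold change -1.33 ± 0.26, edgeR adjusted p = 0.00205), in early CMDMs (-0.91 ± 0.26, edgeR adjusted p = 0.0118, or 0.0606 without the filter on low counts) and in late CMDMs (-1.57 ± 0.26, 2.98-fold, edgeR adjusted p = 0.000639).

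Among the other 3 fractions, the Chil3 differences did not pass the test in the fit of 12 libraries. Early CMDMs stood at -0.43 against classical monocytes (edgeR adjusted p = 0.196), which turned to 1.32 (adjusted p = 0.000147) under the pan-leukocyte scaling, and late CMDMs stood at 0.67 against early CMDMs (edgeR adjusted p = 0.0644), which turned to -0.30 under it (adjusted p = 0.289). Late CMDMs against classical monocytes gave 0.24 (edgeR adjusted p = 0.502), or 1.01 (adjusted p = 0.00284) under that scaling. The libraries of the pairs with early CMDMs did not overlap. Both of those differences passed without resident-like replicate 2, the library with the lowest Chil3 (adjusted p = 0.0132 and 0.000881), although that library is in neither comparison, since all 12 libraries share the estimate of the spread. The second of them also passed without resident-like replicate 3 (adjusted p = 0.0378) and in DESeq2 (adjusted p = 0.0222), and both passed in fits of the 6 libraries compared (adjusted p = 0.0186 and 0.00093).

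Chil4 was scarcer, with 4.80, 6.27 and 6.30 CPM in the classical monocyte libraries and 7.17, 4.11 and 6.46 CPM in those of early CMDMs, which overlapped. The late CMDM libraries had 9.16, 7.72 and 7.55 CPM, above all others, and the resident-like libraries had 3.02, 0.607 and 2.94 CPM, below all others. It followed Chil3 at a level of 2.41 to 7.06 counts for each 100 Chil3 counts, and the log2 levels of the pair had a Pearson r of 0.96 over the 12 libraries. This description rests partly on the sequence the pair shares, and how many of their reads were split was not tested. The lowest library, resident-like replicate 2, was also the lowest for Chil3 and the highest for Retnla. Resident-like macrophages were lower than late CMDMs by 1.87 on the log2 scale (SE 0.36, edgeR adjusted p = 0.00117), lower than early CMDMs (-1.42 ± 0.36, edgeR adjusted p = 0.00484) and lower than classical monocytes (-1.39 ± 0.36, edgeR adjusted p = 0.0105, or 0.056 without the filter). The other 3 differences of Chil4, from 0.03 to 0.49, were not called, and the value of late against early CMDMs, 0.46, turned to -0.48 under the pan-leukocyte scaling (adjusted p = 0.178). Under it early and late CMDMs were called above classical monocytes, by 1.74 (adjusted p = 4.9e-05) and 1.26 (adjusted p = 0.00224), and the latter pair also passed in a fit of its 6 libraries (0.50, adjusted p = 0.0396).

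Chil1 was higher in both CMDM fractions than in classical monocytes and was low in resident-like macrophages. The classical monocyte libraries had 1.48, 2.03 and 4.52 CPM, those of early CMDMs 5.75, 6.07 and 7.53 CPM, those of late CMDMs 8.20, 12.5 and 11.9 CPM, and the resident-like libraries 0.863, 2.97 and 2.24 CPM. Both PD-L2hi fractions were above all libraries of the PD-L2lo fractions, which overlapped with each other. Late CMDMs were 4.04-fold above classical monocytes (2.02 ± 0.37, edgeR adjusted p = 0.000744) and 5.44-fold above resident-like macrophages (resident-like minus late -2.44 ± 0.39, edgeR adjusted p = 0.000349). Early CMDMs were 3.22-fold above resident-like macrophages (resident-like minus early -1.69 ± 0.40, edgeR adjusted p = 0.00318). Early CMDMs were above classical monocytes by 1.26 ± 0.38 (edgeR adjusted p = 0.0154), a call lost without classical monocyte replicate 1 (adjusted p = 0.0537) or replicate 2 (0.0561) or early CMDM replicate 3 (0.0539) or without the filter (0.076). Without classical monocyte replicate 3 the early and late CMDM values against classical monocytes were 1.87 and 2.62. Late minus early CMDMs was 0.76 without overlap (edgeR adjusted p = 0.114) and -0.19 under the pan-leukocyte scaling, and it passed without classical monocyte replicate 3 (adjusted p = 0.0368), the highest classical library, and in a fit of the 6 libraries compared (adjusted p = 0.00536). The PD-L2lo fractions differed by -0.43 (edgeR adjusted p = 0.548), and by 0.18 without classical monocyte replicate 3. Between 16 and 205 counts per library stand behind the Chil1 values.

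Mrc1, the mannose receptor, is an endocytic lectin that takes up glycoproteins ending in mannose, and its libraries did not overlap between any pair of fractions. It lies on chromosome 2 at 14229392 to 14332057 of GRCm38, plus strand, with 30 exons. The classical monocyte libraries had 240.2, 260.2 and 399 CPM of Mrc1, those of early CMDMs 465, 415 and 668 CPM, those of late CMDMs 1337, 1310.2 and 1459 CPM, and the resident-like libraries 802, 757 and 699.7 CPM. The order was classical monocytes, early CMDMs, resident-like macrophages and late CMDMs. Against classical monocytes it was 1.72-fold higher in early CMDMs (0.78 ± 0.19, edgeR adjusted p = 0.00292), 4.56-fold in late CMDMs (2.19 ± 0.19, edgeR adjusted p = 4.14e-07) and 2.51-fold in resident-like macrophages (1.33 ± 0.19, edgeR adjusted p = 7.69e-05). Late CMDMs were also above early CMDMs by 1.41 ± 0.19 (edgeR adjusted p = 3.83e-05), and resident-like macrophages were below late CMDMs (-0.86 ± 0.19, edgeR adjusted p = 0.00276).

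The place of resident-like macrophages above early CMDMs was the least firm Mrc1 step. The difference was 0.54 ± 0.19 (edgeR adjusted p = 0.0255), fell to 0.38 with library size only (adjusted p = 0.0927) and to 0.43 with the DEGES normalization (adjusted p = 0.0648), missed the threshold without the filter (adjusted p = 0.109), and turned to -1.02 (adjusted p = 4.16e-06) when libraries were scaled by the pan-leukocyte genes. It also missed the threshold without early CMDM replicate 1 (adjusted p = 0.0989) or 2 (0.117) and without resident-like replicate 1 (0.0793) or 2 (0.0576). The late CMDM libraries, in which Mrc1 was highest, also had the highest level of lymphatic endothelial markers. The 7 markers summed to 323 to 446 CPM there against 116 to 169 CPM in early CMDMs and 53.4 to 110.2 CPM in both PD-L2lo fractions, and all 7 were higher in late CMDMs than in each other fraction. Prox1, the transcription factor that defines this lineage, had 12.2 to 16.7 CPM in late CMDMs and 0.554 to 5.32 CPM elsewhere. Their part in the Mrc1 level was not tested.

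Mgl2 and Clec10a encode lectins that bind galactose and N-acetylgalactosamine and arose by duplication. They lie side by side on chromosome 11 of GRCm38, plus strand, at 70130329 to 70137550 and 70156197 to 70170834. Their coding sequences were 92.1% identical over 910 aligned bases with a longest identical run of 183 bases, and 242 of the 1537 windows of 50 bases in the Mgl2 transcript (15.7%) occurred unchanged in that of Clec10a. The 1st of the following stretches, in exon 8 of both genes at chr11:70136441-70136530 and chr11:70169926-70170015, has no differing base and shows where reads cannot be told apart. The other pair, in exon 10 at chr11:70136952-70137041 and chr11:70170449-70170538, plus strand, is the stretch of 90 coding bases within 1 exon at which they differ most, with the 27 differing bases in capitals.
Both genes: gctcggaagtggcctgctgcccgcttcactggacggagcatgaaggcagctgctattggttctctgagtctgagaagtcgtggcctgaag
Mgl2: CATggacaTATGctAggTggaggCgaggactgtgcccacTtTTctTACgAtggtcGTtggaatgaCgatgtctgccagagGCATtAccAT
Clec10a: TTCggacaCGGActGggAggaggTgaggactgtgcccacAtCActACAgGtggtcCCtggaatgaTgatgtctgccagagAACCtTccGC
Reads of the identical parts match both genes, so that the separate counts of the pair are uncertain.

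Among Mrc1, Mgl2 and Clec10a, only Mgl2 had its highest mean in the resident-like fraction. The classical monocyte libraries had 112, 107 and 89.8 CPM, those of early CMDMs 74.0, 70.8 and 72.5 CPM, those of late CMDMs 217, 232 and 144 CPM, and the resident-like libraries 860.3, 906 and 989 CPM. The 4 fractions did not overlap. Resident-like macrophages were 8.91-fold above classical monocytes (3.16 ± 0.16, edgeR adjusted p = 7.2e-10), 12.7-fold above early CMDMs (3.66 ± 0.16, edgeR adjusted p = 2.51e-10) and 4.64-fold above late CMDMs (2.21 ± 0.15, edgeR adjusted p = 3.23e-08). Late CMDMs were above classical monocytes by 0.94 ± 0.15 (edgeR adjusted p = 0.000101) and above early CMDMs by 1.45 ± 0.15 (edgeR adjusted p = 2.16e-06). Early CMDMs were below classical monocytes (-0.51 ± 0.15, edgeR adjusted p = 0.01), a direction that turned to 1.24 (adjusted p = 2.96e-06) under the pan-leukocyte scaling.

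Clec10a was not higher in resident-like macrophages than in late CMDMs, as Mgl2 was. The classical monocyte libraries had 149, 126 and 123 CPM, those of early CMDMs 108, 89.5 and 95.8 CPM, those of late CMDMs 386, 399 and 224 CPM, and the resident-like libraries 330.3, 345 and 326 CPM. Late CMDMs and resident-like macrophages overlapped and differed by -0.01, with a 95% interval of -0.40 to 0.37 (edgeR adjusted p = 0.967), or by -0.67 under the pan-leukocyte scaling (adjusted p = 0.011). The sign of this value changed on leaving out late CMDM replicate 1 (0.10) or 2 (0.13). Late CMDMs were 2.54-fold above classical monocytes (1.35 ± 0.17, edgeR adjusted p = 1.63e-05) and 3.44-fold above early CMDMs (1.78 ± 0.17, edgeR adjusted p = 1.73e-06). Resident-like macrophages were above the same fractions by 1.33 ± 0.17 (edgeR adjusted p = 2.6e-05) and 1.77 ± 0.17 (edgeR adjusted p = 5.79e-07), the latter being 0.15 (adjusted p = 0.494) under the pan-leukocyte scaling. Early CMDMs were below classical monocytes by a margin that barely passed (-0.44 ± 0.17, edgeR adjusted p = 0.0473). That call was lost on leaving out any single library of the classical monocyte, early CMDM or resident-like fraction (adjusted p of up to 0.173, without classical monocyte replicate 1), with the DEGES normalization (-0.34, adjusted p = 0.123), without the filter (adjusted p = 0.069) and without genes over 1% of counts (adjusted p = 0.0506), and it turned to 1.31 (adjusted p = 5.58e-06) under the pan-leukocyte scaling.

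The ratio of the paralogs shows the divergence within each library, where the scaling of libraries does not enter. There were 73.0 to 85.5 Mgl2 counts for each 100 Clec10a counts in classical monocytes, 68.3 to 79.1 in early CMDMs and 56.2 to 64.3 in late CMDMs, against 260.5, 262 and 303 in resident-like macrophages. Every resident-like library thus held more Mgl2 than Clec10a, and every other library less. Dendritic cells also make Mgl2 and Clec10a, and their markers were high in the same fraction. Of the 10 markers, 8 were higher in resident-like macrophages than in early CMDMs, 6 higher than in late CMDMs, and 3 higher and 4 lower than in classical monocytes. Cd207 (langerin) had 679 to 920 CPM and Cd209a 523 to 573 CPM in resident-like libraries, against at most 75.9 and 177 CPM in any other library. Flt3, the receptor that dendritic cells depend on, had 21.7 to 30.8 CPM there, below the 60.5 to 80.9 CPM of classical monocytes. The part of dendritic cells in the Mgl2 level was not tested.

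F13a1 encodes the A subunit of factor XIII, which crosslinks fibrin and which tissue macrophages also make. It lies on chromosome 13 of GRCm38 at 36867178 to 37050244, minus strand, with 15 exons. The classical monocyte libraries had 145, 216 and 148 CPM of F13a1, those of early CMDMs 105, 86.1 and 109.6 CPM, those of late CMDMs 369.97, 452 and 239 CPM, and the resident-like libraries 239.8, 286 and 198 CPM. Late CMDMs and early CMDMs formed the extremes, and resident-like macrophages overlapped with both late CMDMs and classical monocytes. Late CMDMs were 3.53-fold above early CMDMs (1.82 ± 0.22, edgeR adjusted p = 3.07e-05) and 2.09-fold above classical monocytes (1.06 ± 0.22, edgeR adjusted p = 0.00175), and resident-like macrophages were above early CMDMs by 1.27 ± 0.22 (edgeR adjusted p = 0.000322), a value that turned to -0.33 (adjusted p = 0.178) under the pan-leukocyte scaling. Early CMDMs were below classical monocytes (-0.76 ± 0.22, edgeR adjusted p = 0.0121), which turned to 0.97 (adjusted p = 0.000681) under that scaling and was lost without classical monocyte replicate 2 (adjusted p = 0.0541) or early CMDM replicate 2 (0.0631) or without the filter (0.0712).

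The remaining F13a1 differences stood near the threshold. Resident-like macrophages were above classical monocytes by 0.51 (edgeR adjusted p = 0.117), and by 0.72 without classical monocyte replicate 2 (adjusted p = 0.0301), and the difference of 0.51 passed without late CMDM replicate 3 (adjusted p = 0.0434). Against late CMDMs they stood at -0.55 (edgeR adjusted p = 0.076), which passed without late CMDM replicate 3 (-0.77, adjusted p = 0.00915) or classical monocyte replicate 2 (adjusted p = 0.0439), in DESeq2 (adjusted p = 0.0367), with library size only (-0.69, adjusted p = 0.0312) and under the pan-leukocyte scaling (-1.21, adjusted p = 0.000333). Of platelets, another source of factor XIII, the 5 platelet and megakaryocyte markers summed to 4.19 to 8.72 CPM, and Gp9 had a count of 0 in all libraries of 3 fractions.

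**Figure D4:**
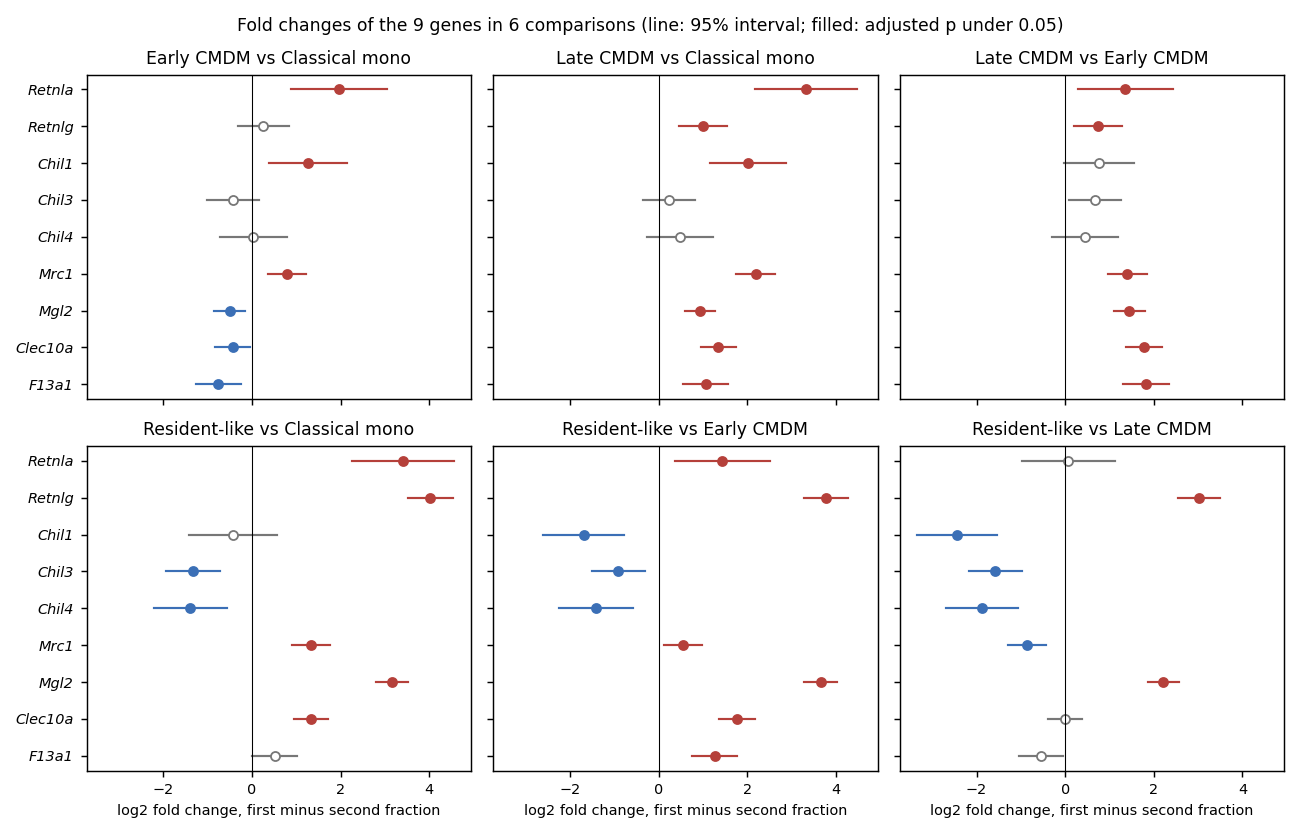
Log2 fold change (first minus second fraction) of the 9 genes in the 6 comparisons, with 95% intervals as lines and filled red or blue points for genes called higher or lower at an adjusted p under 0.05 (edgeR). Late CMDMs had 7 of the 9 above classical monocytes, beside 18.1% of all tested genes. Against late CMDMs the resident-like fraction had Retnlg and Mgl2 higher and the 3 chitinase-like genes and Mrc1 lower, beside 12.7% and 15.4% of all tested genes. The 3 lower calls of early CMDMs against classical monocytes, and the Mrc1 call of resident-like macrophages against early CMDMs, changed direction when libraries were scaled by pan-leukocyte genes, as did Retnla and F13a1 in the latter comparison and Retnlg in late against early CMDMs.

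Division by transcript length sets levels of different genes side by side only if reads cover the whole transcript, which was not checked. Per kilobase of transcript, Retnla led in every fraction, with means of 188 ± 20.3 CPM per kb in classical monocytes, 735 ± 49.1 in early CMDMs, 1888 ± 673 in late CMDMs and 1989 ± 1570 in the resident-like fraction (SD, n = 3). In CPM, Mrc1 was above Retnla by mean in classical monocytes, at 300 and 113, and also in early and late CMDMs. Retnla led by mean CPM only in the resident-like fraction, so that this order depends on the lengths. Per kilobase, the gene next to Retnla changed from fraction to fraction. It was Clec10a in classical monocytes (88.6 ± 9.54 CPM per kb), Mrc1 in early CMDMs (96.1 ± 24.9) and late CMDMs (255 ± 14.8), and Mgl2 in resident-like macrophages (579 ± 41.0). Chil1 and Chil4 had at most 7.39 CPM per kb in any library, and Retnlg at most 10.0 except in resident-like macrophages, at 65.9 to 80.5. The transcripts used ranged from 593 bases for Retnlg to 5374 bases for Mrc1.

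The early CMDM libraries, with their high keratinocyte and low pan-leukocyte levels, are the ones on which the scaling bears most. Under the scaling by 10 pan-leukocyte genes, the median log2 fold change of all tested genes moved to 1.72 for early CMDMs against classical monocytes, 0.76 for late CMDMs against classical monocytes and -0.95 for late against early CMDMs. For resident-like macrophages it moved to 0.13 against classical monocytes, -1.58 against early CMDMs and -0.64 against late CMDMs. All 9 genes were then called higher in early CMDMs than in classical monocytes, among the 90.9% of tested genes that were. Since a scaling moves all genes of a comparison together, subtracting the shift gives back nearly the TMM values by construction, and they are no separate evidence. For each 1000 counts of the pan-leukocyte genes, Retnla had 21.7 to 27.3 counts in classical monocytes, 241 to 361 in early CMDMs, 256 to 608 in late CMDMs and 122 to 539 in the resident-like libraries, so that the 3 macrophage fractions overlapped. On the same scale Mrc1 had 53.1 to 82.4 counts in classical monocytes, 165 to 184 in the resident-like libraries, 346 to 366 in early CMDMs and 475 to 517 in late CMDMs, and the fractions did not overlap. Whether leukocytes or other cells set the level of a gene in early CMDMs was not tested.

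**Figure D5:**
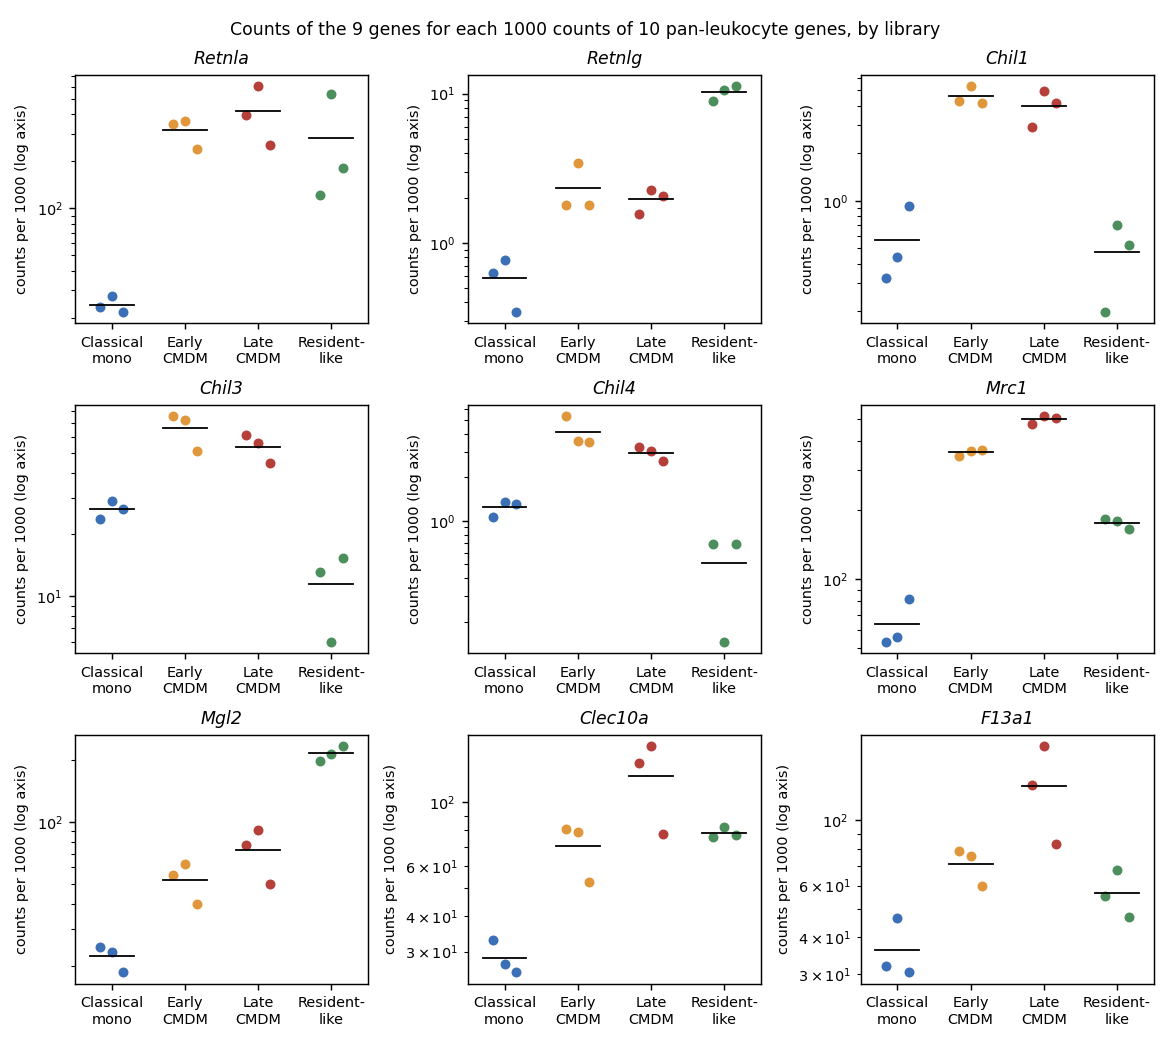
Counts of each gene for each 1000 counts of 10 pan-leukocyte genes (log axes), with points for the 3 libraries and a black line for the mean of each fraction. On this scale the early CMDM libraries were above the classical monocyte libraries for all 9 genes. Scaling libraries by the pan-leukocyte genes called 90.9% of all tested genes higher there. On the TMM scale Mgl2, Clec10a and F13a1 were lower in early CMDMs, beside 20.6% of all tested genes.

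Other genes of the pathway were described from lists. Of 10 genes of the IL-4 and IL-13 receptor and its signalling, 2 were higher and 5 lower in early CMDMs than in classical monocytes, beside 24.2% and 20.6% of all tested genes. Their median log2 fold change was -0.35, against -0.01 for all tested genes. The pan-leukocyte scaling gave 9 higher there, near the share of 90.9% of all tested genes. Late CMDMs had 2 higher and 4 lower than classical monocytes, beside 18.1% and 17.5%, and that scaling gave 6 higher, near 61.9%. Late CMDMs had 5 higher and 2 lower than early CMDMs (median 0.35), beside 14.4% and 17.5%, and that scaling gave 7 lower, near 73.2%. Single genes are given on the TMM scale, with means in the order in which the fractions were introduced. Stat6 had means of 114, 79.3, 93.6 and 107 CPM and was lower in early CMDMs than in classical monocytes (-0.52 ± 0.09, edgeR adjusted p = 0.00017). Il4ra, the shared receptor chain, had means of 106, 76.7, 141 and 105 CPM and was higher in late than in early CMDMs (0.88 ± 0.16, edgeR adjusted p = 0.000573). Il13ra1 ran the other way and was lower in late than in early CMDMs (-1.08 ± 0.11, edgeR adjusted p = 1.87e-06), while Jak1, at means of 240 to 283 CPM, was called in none of the 6 comparisons. The differences of Stat6 and Il4ra depend on the TMM scale. The pan-leukocyte scaling moved the median log2 fold change of all tested genes to 1.72 in the Stat6 comparison and to -0.95 in the Il4ra comparison.

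Of 9 transcription factors and regulators of the program, 4 were higher and 4 lower in early CMDMs than in classical monocytes, beside 24.2% and 20.6% of all tested genes. Under the pan-leukocyte scaling 9 were higher, beside 90.9%. Resident-like macrophages had 5 higher than classical monocytes under either scaling (median 0.47), beside 10.8% with TMM and 9.48% under the pan-leukocyte scaling. Klf4, a factor that cooperates with STAT6, had means of 570, 1168, 1166 and 921 CPM in that order and was higher in early CMDMs than in classical monocytes (1.03 ± 0.10, edgeR adjusted p = 4.25e-07). Egr2 was also higher there (1.57 ± 0.15, edgeR adjusted p = 2.71e-07). Keratinocyte markers were highest in early CMDMs as well, and the part of keratinocytes in these levels was not tested. Kdm6b, a histone demethylase induced by IL-4, was lowest in early CMDMs at a mean of 358 CPM and highest in resident-like macrophages at 842 CPM. The place of early CMDMs in this order depends on the TMM scale. For resident-like macrophages against early CMDMs, the pan-leukocyte scaling moved the median log2 fold change of all tested genes to -1.58. Cebpb, at means of 387 to 542 CPM, was called in no comparison.

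The 14 tested effectors of alternative activation outside the 9 genes were most often higher in late CMDMs. There 10 were higher and 2 lower than in classical monocytes (median 1.48, against -0.01 for all tested genes), beside 18.1% and 17.5% of all tested genes. Late CMDMs had 10 higher and 1 lower than early CMDMs (median 1.12), beside 14.4% and 17.5%. The pan-leukocyte scaling gave 5 higher and 2 lower in that comparison, beside 0.69% and 73.2%. Resident-like macrophages had 2 higher and 4 lower than late CMDMs, beside 12.7% and 15.4%, or 1 higher and 9 lower under that scaling, beside 2.74% and 53.5%. Cd163, the hemoglobin scavenger receptor, had means of 96.8, 400, 1015 and 246 CPM and was lower in resident-like macrophages than in late CMDMs (-2.05 ± 0.19, edgeR adjusted p = 1.37e-06). Arg1, which diverts arginine to ornithine, had 777, 746 and 977 CPM in late CMDMs against 113, 85.5 and 154 CPM in resident-like macrophages (a difference of -2.83 ± 0.47, edgeR adjusted p = 0.00128), and its libraries of classical monocytes spread from 108 to 388 CPM. With TMM, Fn1 and Hilpda were lower in early CMDMs than in classical monocytes (-1.01 ± 0.19 and -0.66 ± 0.15, edgeR adjusted p = 4e-04 and 0.00238). Both directions depend on the scaling, since the pan-leukocyte scaling moved the median of all tested genes to 1.72 in this comparison. In its single-cell data the study reported Hilpda as upregulated from classical monocytes to early CMDMs, along with Retnla, Mrc1, Cd163, Arg1 and Il10. Of these, Retnla and Mrc1 were called higher in early CMDMs here with TMM, and Cd163 had the higher mean there. Fn1 and Hilpda were called in neither direction between late CMDMs and resident-like macrophages.

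Relatives of the 9 genes by family gave no common direction. Of 18 listed, 13 were tested, with 5 higher and 4 lower in early CMDMs than in classical monocytes, 4 and 4 in late CMDMs than in classical monocytes, and 2 and 3 in resident-like macrophages than in late CMDMs. Of all tested genes, 24.2% and 20.6%, 18.1% and 17.5%, and 12.7% and 15.4% were called higher and lower in these comparisons. Under the pan-leukocyte scaling the counts were 10 and 1, 8 and 3, and 1 and 5. The shares of all tested genes under it were 90.9% and 2.09%, 61.9% and 5.16%, and 2.74% and 53.5%. Chit1, an active chitinase, had means of 14.2, 109, 13.7 and 12.1 CPM, and Tgm3, an epidermal transglutaminase, had 20.1, 127, 14.2 and 17.9 CPM. Both were highest in early CMDMs, as the keratinocyte markers were, whose part in these levels was not tested. Tgm2, the tissue transglutaminase, was lower in late CMDMs than in classical monocytes (-1.49 ± 0.28, edgeR adjusted p = 0.0011). Cd209a, a C-type lectin of dendritic cells and monocytes, followed the direction of Mgl2 in resident-like macrophages against late CMDMs (2.05 ± 0.19, edgeR adjusted p = 2e-06).

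The Pearson correlation of log2 CPM over the 12 libraries is given as a description over points that share fractions and depth. Retnlg and Mgl2 had an r of 0.96, Chil3 and Chil4 also 0.96, Clec10a and F13a1 0.90, Mgl2 and Clec10a 0.83, and Retnla and Mrc1 0.82. Retnlg and Chil3 ran against each other, with an r of -0.76. Among 11165 genes with a mean of at least 5 CPM, those closest to Retnlg were H2-M2 (r = 0.99) and Scp2 (0.98), and those closest to Mgl2 were Alox5 and Olfr1372-ps1 (both 0.99). The closest to Mrc1 were Sesn1 and Spire1 (both 0.99) and Dab2 (0.99), to Clec10a Pnp and Abca9 (both 0.98) and Cd36 (0.97), and to F13a1 Colec12 (0.96), Gypc (0.95) and Ifi207 (0.94). Retnla was closest to Ccdc163 (0.96), Zfp318 (0.96) and Cd81 (0.96), Chil1 to Etfdh (0.94), Atp5k (0.94) and Atp5mpl (0.94), and Chil3 and Chil4 to each other and to Sephs2 (0.93 and 0.88). With 4 fractions, any gene that separates the same fractions has a high r, and these values say no more than that the fractions were ordered alike.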

How the data were processed

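Per the labels, the 12 bulk RNA-seq libraries came from 4 sorted Mo-Mac fractions, 3 each. The deposited values were counts that the authors obtained by trimming with cutadapt 4.1, mapping to GRCm38 reference RNA with Bowtie2 2.4.5 on one strand and adding up transcripts of a symbol, unnormalized, so reads of paralogs could be split. Unused columns numbered 0. Counts were fitted here in edgeR 4.0.16 (R 4.3.3) with TMM, filterByExpr and robust quasi-likelihood tests over all 12 libraries at once (common biological variation 13.2%). P-values were Benjamini-Hochberg adjusted over 22118 genes, with a threshold of 0.05. Correlations used log2 CPM with a prior count of 2. No replicates were duplicates (chi-square per degree of freedom at least 4.24). Positions were from GENCODE M21, and 8 of 9 genes had a RefSeq promoter row. Biopython 1.88 aligned coding sequences. Alternatives were DESeq2 1.42.0, its size factors in edgeR, library size only, DEGES (TMM without called genes, the strategy of the study's tool), pan-leukocyte scaling, no filter, fits of 6 libraries, a replicate block, omission of genes over 1% of counts, and omission of each library. The 9 genes and all lists were chosen with earlier results of these data known. All 9 were named in every comparison, with the 3 nearest genes by correlation; from other lists, up to 4 genes of highest mean CPM and defining markers near 0. Prox1 was named after its values were seen.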

Additional observations from a re-analysis of the deposited data

How the results depend on the processing

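The scaling by pan-leukocyte genes changed most. In the order early CMDMs against classical monocytes, late CMDMs against classical monocytes, late against early CMDMs, and resident-like macrophages against early CMDMs and against late CMDMs, it called 20566, 14821, 16333, 20166 and 12446 genes, against 9925, 7869, 7045, 10297 and 6225 with TMM, and for these 5 comparisons the share of calls that were higher moved from 54.0%, 50.8%, 45.1%, 46.0% and 45.1% to 97.8%, 92.3%, 0.9%, 1.5% and 4.9%. With library size only (median log2 fold change of all genes -0.17, -0.14 and -0.13), the share was 24.1%, 31.5% and 28.0% for resident-like macrophages against classical monocytes (45.7% with TMM), early CMDMs and late CMDMs, and with DEGES it was 35.7% against early CMDMs. Of the 9 genes, the pan-leukocyte scaling called 9 higher and 0 lower in early CMDMs against classical monocytes (edgeR, with 0 lower also at an unadjusted p under 0.05), where Chil3, Mgl2, Clec10a and F13a1 turned to 1.32, 1.24, 1.31 and 0.97. Of all tested genes, 90.9% were called higher and 2.09% lower in that comparison. The same scaling called 2 of the 9 higher in resident-like macrophages against early CMDMs, beside 1.36% of all tested genes. In that comparison Retnla, Mrc1 and F13a1 turned to -0.17, -1.02 and -0.33. Under it late against early CMDMs turned to -0.23 for Retnlg, -0.19 for Chil1, -0.30 for Chil3 and -0.48 for Chil4, and resident-like macrophages against late CMDMs to -0.58 for Retnla. Without the filter, 1 of the 9 was called lower in early CMDMs and 1 in resident-like macrophages against classical monocytes, in place of 3 and 2, with more genes tested. The resident-like against late CMDM value of Retnla was -0.070 with library size only. Omitting single libraries left 1 to 3 genes lower in early CMDMs against classical monocytes, with Retnlg from -0.0027 to 0.52 and Chil4 from -0.12 to 0.25. Such omissions gave Chil1 from -0.81 to 0.18 in resident-like macrophages against classical monocytes, and against late CMDMs Retnla from -0.80 to 0.43 and Clec10a from -0.24 to 0.13. Libraries were not treated as paired by replicate number, since not every same-numbered pair had deviations that correlated over 0.1. These correlations were -0.0987 to 0.248, with a median of 0.0589 and 4 of 18 pairs over 0.1. Differently numbered pairs had -0.215 to 0.171, with a median of -0.0314 and 1 of 36 over 0.1. A partial pairing is thus not excluded. The replicate block gave 10322 calls for early CMDMs against classical monocytes, turned Chil4 there to -0.013, and turned resident-like against late CMDM values to -0.046 for Retnla and 0.015 for Clec10a. It called F13a1 between resident-like macrophages and late CMDMs (adjusted p = 0.0357) and classical monocytes (0.0499), and Chil1 between late and early CMDMs (0.0281). Over all alternatives, 1033 values of the 9 genes kept direction and side of the threshold, 51 lost and 24 gained a call, and 26 changed sign, and beyond the settings named the cause was not tested. Depth limits Chil1, Chil4 and Retnlg most.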

Other observations

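A further 3 genes of the program, chosen after their values were seen, also separated the fractions. Ccl22 and Ccl17, chemokines that attract Th2 cells and regulatory T cells through CCR4, were high in both Ly6Clo fractions. Ccl22 had 20.7, 24.7 and 25.4 CPM in the late CMDM libraries and 16.6, 30.3 and 21.4 CPM in the resident-like libraries, against 2.68 to 4.55 CPM in the Ly6Chi libraries. It was higher in late CMDMs than in classical monocytes by 2.79 ± 0.23 (SE, n = 3 per fraction, edgeR adjusted p = 1.45e-07), and the Ly6Clo fractions overlapped. Ccl17 had 7.35 to 12.4 CPM in the late CMDM libraries and spread from 2.43 to 14.8 CPM in the resident-like libraries, against at most 2.03 CPM elsewhere. Both chemokines are also made by dendritic cells, whose 10 markers had their highest sum in the resident-like libraries. Against classical monocytes, 3 of these markers were higher and 4 lower there. The part of dendritic cells in these levels was not tested.

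Irf4, a transcription factor that IL-4 induces in macrophages and that also acts in dendritic cells, had 111, 116 and 107 CPM in the resident-like libraries and 20.3 to 20.8 CPM in those of early CMDMs. Classical monocytes, at 44.7 to 56.9 CPM, and late CMDMs, at 37.1 to 52.9 CPM, overlapped. These levels are on the TMM scale, and the place of early CMDMs depends on it. The pan-leukocyte scaling moved the median log2 fold change of all tested genes to 1.72 for early CMDMs against classical monocytes. Resident-like macrophages were above late CMDMs by 1.25 ± 0.12 (edgeR adjusted p = 1.71e-06), in the direction of Mgl2 and Retnlg and against that of Mrc1 and the chitinase-like genes.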
